A study of Mus musculus with 11 samples.

Results

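The STAT, JAK and SOCS genes described here are 9 genes of cytokine signalling, found by their symbols in a table of 26061 genes. They are the kinases Jak1 and Jak2, the transcription factors Stat2, Stat3, Stat5a and Stat6, and the feedback inhibitors Socs1, Socs3 and Cish. All 9 symbols were in the table, and all 9 passed the filter on low values. RNA was measured in BV2, an immortalised mouse microglial line, after lipofection with siRNA against Tet2, an enzyme that oxidises methylated cytosine in DNA, or with a non-targeting siRNA. The groups were siScr_Ctrl (non-targeting siRNA, untreated, 3 libraries), siScr_LPS (non-targeting siRNA and lipopolysaccharide, 3 libraries), siTet2_Ctrl (Tet2 siRNA, untreated, 3 libraries) and siTet2_LPS (Tet2 siRNA and lipopolysaccharide, 2 libraries, numbered 2 and 3). Lipopolysaccharide (LPS), the bacterial ligand of Toll-like receptor 4, was given at 1 µg/ml for 3 h, starting 48 h after transfection and with a change to medium of lower serum. The labels do not say whether untreated cells changed medium too, nor whether libraries came from separate cultures. The p-values therefore measure the spread between these libraries, which may be technical. All cells are of 1 line and all were transfected, so untransfected cells are not part of any comparison.

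Many cytokines, and the interferons, bind receptors that have no enzyme activity of their own and carry JAK kinases on their inner side. The JAKs phosphorylate the receptor and then STAT proteins, which pair, enter the nucleus and bind DNA. STAT2 works with IRF9 downstream of type I interferon, STAT3 downstream of the IL-6 and IL-10 families, STAT5 downstream of growth factors such as GM-CSF, and STAT6 downstream of IL-4 and IL-13. Several SOCS genes are themselves STAT targets, and their proteins bind JAKs or receptors and dampen the signal. In macrophages and microglia LPS does not act on JAKs directly, but it induces interferon-beta and other cytokines that do.

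Promoter sequence is shown for the 4 members in which a STAT or interferon motif lay near the start of the gene. They were among the 5 members with the largest increases after LPS, and the other of these, Jak2, held no such motif. Any part of the motifs in the increases was not tested. The sequences are RefSeq windows of 300 bases, 250 before and 50 after the start, on GRCm38.p6. That is not the build of the deposited table, which per the submitters' processing notes was mm9. All 9 members had a window, and Stat5a had a second one. In each line the gene's own strand is given 5′ to 3′, and capitals mark the match.
Socs3, chr11:117969487-117969546, minus strand: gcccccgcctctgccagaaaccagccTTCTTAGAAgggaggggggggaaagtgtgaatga
Cish, chr9:107296654-107296683, plus strand: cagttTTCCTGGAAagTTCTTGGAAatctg
Stat2, chr10:128270251-128270310, plus strand: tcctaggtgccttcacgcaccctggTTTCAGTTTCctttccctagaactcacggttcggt
Socs1, chr16:10785582-10785641, minus strand: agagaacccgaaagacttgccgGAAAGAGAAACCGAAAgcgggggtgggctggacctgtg

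The capitals in Socs3 and Cish are the STAT palindrome, TTCNNNGAA. Socs3 held it once, from 154 to 146 bases before the start, and Cish 2 times, at bases 1 to 9 and 12 to 20 of the transcript. On either strand 8.30% of all 32851 windows held at least 1 such palindrome and 0.457% held 2 or more. The capitals in Stat2 and Socs1 are the core of an interferon response element, GAAANNGAAA, which 3.44% of windows held. Stat2 had it on the opposite strand, from 222 to 213 bases before the start. A spaced STAT motif, TTCNNNNGAA (6.95% of windows), lay at 210 to 201 bases before the start of Stat2. In Socs1 the capitals span 2 overlapping cores, which begin 83 and 77 bases before the start. A kappaB-like motif, GGGNNNNTCC, was common (19.2% of windows) and was found in 1 of the 2 Stat5a windows, from 218 to 209 bases before the start. The windows of Jak1, Jak2, Stat3 and Stat6 held none of these 4 letter patterns. The matches are descriptions of the letters only. No binding was measured.

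Values are given as normalised reads, the reads of a library divided by its size factor, which undo the deposited log2-like values exactly. Tests were made on the deposited log2 values with limma, with p-values adjusted over 12486 genes and a gene called at an adjusted p under 0.05. The libraries held 8739716 to 23030426 reads on genes (median 18844761). Replicate 3 of siScr_Ctrl was shallow, with 8764031 reads, and detected 16406 genes, against 12866 to 14180 in the others. Without it and the other shallow library, replicate 2 of siTet2_Ctrl (8739716 reads), the counts of members called in each comparison were the same. Tet2 held 82.1% of the control mean with Tet2 siRNA in untreated cells, with overlapping libraries, and 61.5% after LPS, with libraries apart and no call (limma, adjusted p = 0.165). The macrophage genes Csf1r (5148 to 11267 normalised reads) and Itgam (1819 to 6438) were present in every library. The resting-microglia genes P2ry12 (1.07 to 19.3) and Tmem119 (7.79 to 56.2) were nearly absent. Of 26 markers of other cell types, 25 stayed under 50 normalised reads in every library. The exception was Kdr, an endothelial receptor gene, at 2219 to 4678.

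**Figure D1:**
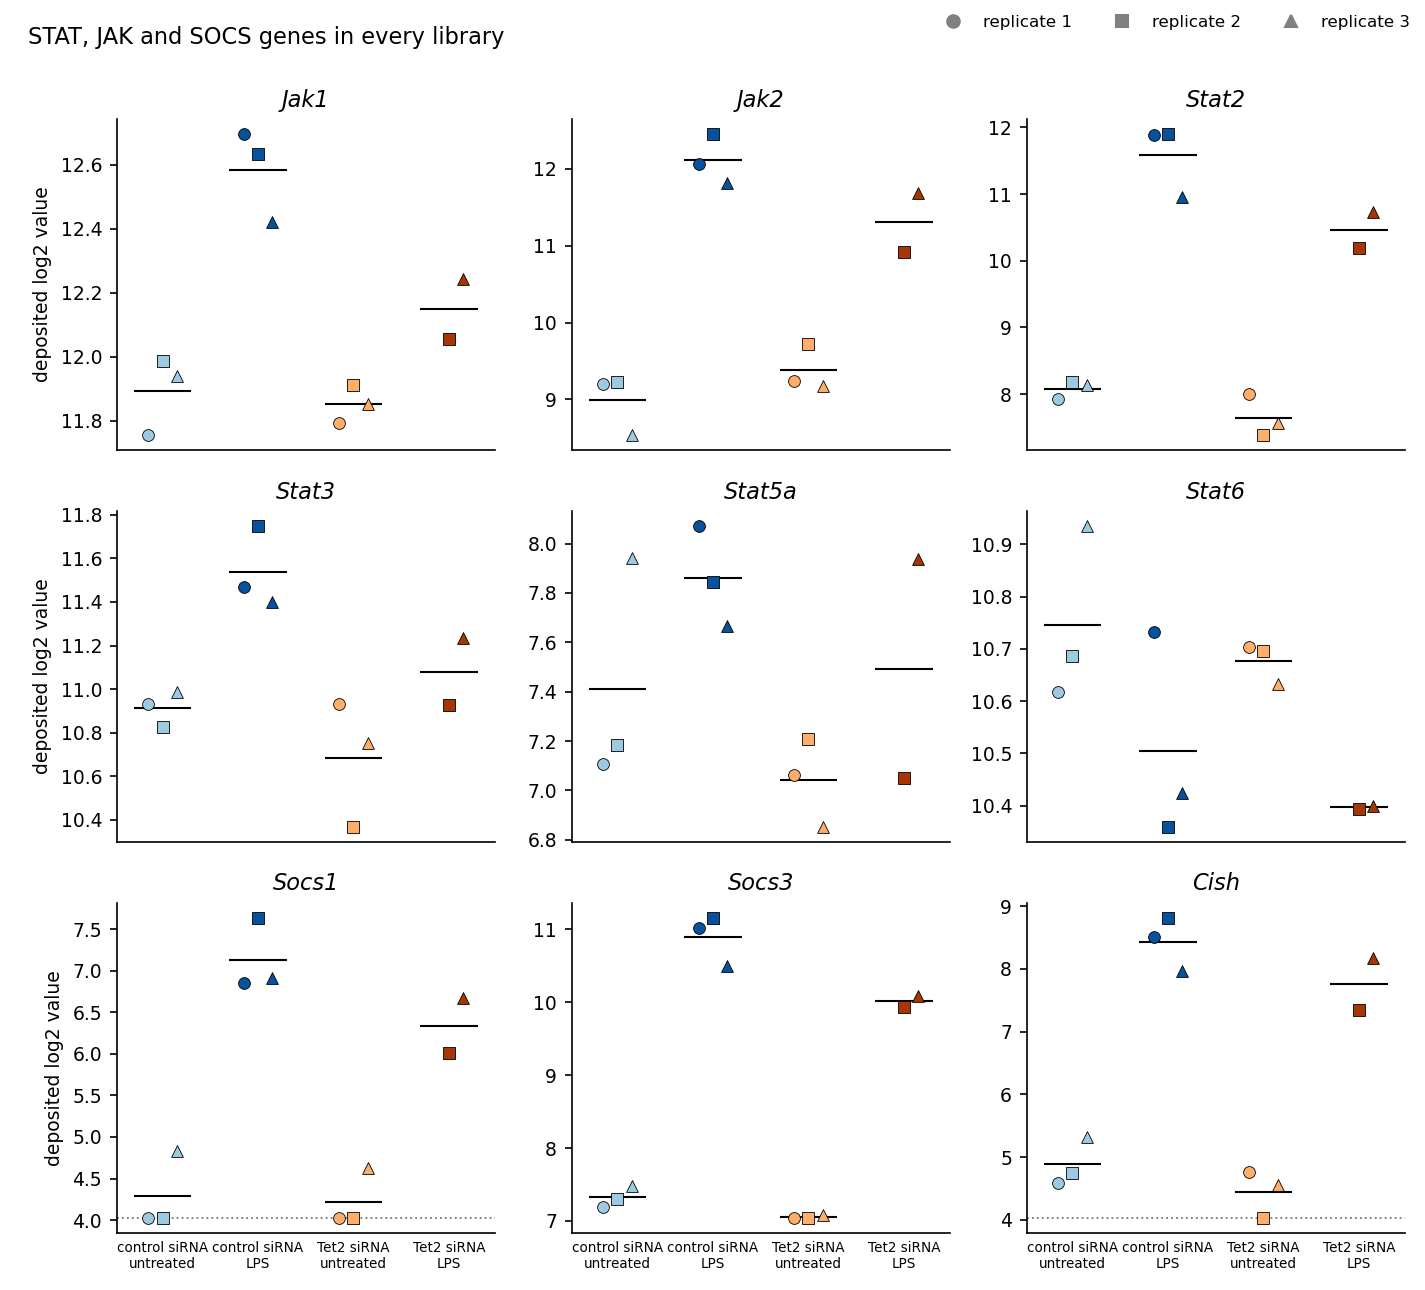
Deposited log2 values of the 9 genes in each of the 11 libraries, with 1 panel per gene and its own vertical scale. Circles, squares and triangles are replicates 1, 2 and 3, the short line is the group mean, and the dotted line in the Socs1 and Cish panels is the value that stands for 0 reads. Jak2, Stat2, Socs1, Socs3 and Cish lie far above the untreated libraries in both LPS groups, and Stat6 does not.

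With control siRNA, 7 of the 9 genes rose with LPS and 0 fell (limma, adjusted p under 0.05). The 9 genes were chosen with earlier results of these data known. Counts of members beside shares of all genes are therefore descriptions only, here and below. Of all 12486 genes tested, 13.2% were called higher, 10.4% lower and 23.7% in either direction. The libraries of the same 7 genes lay wholly above the untreated ones, against 19.2% of all genes, and those of 0 members lay wholly below, against 18.3%. The feedback inhibitors Socs3 and Cish and the interferon-side factor Stat2 rose by about 3.5 log2 units, Jak2 by 3.12 and Socs1 by 2.84. This scale understates changes of genes with few reads, so it does not rank Socs1 and Cish against the others. Jak1 and Stat3 rose by less than 1 log2 unit. Stat5a and Stat6 did not pass. Socs1 and Cish would not have passed the filter on low values without LPS-treated libraries. The filter thus favoured a difference in them, and their calls add nothing to the count.

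Jak1 serves nearly all interferon and IL-6 family receptors. It held 3426, 4022 and 3893 normalised reads in siScr_Ctrl and 6599, 6318 and 5457 in siScr_LPS. The lowest treated library lay above the highest untreated one, and Jak1 rose by 0.69 on the log2 scale (SE 0.14, limma, adjusted p = 0.00285), or 1.62-fold between the means. With quantile normalisation the Jak1 difference was 0.31 and was not called (limma, adjusted p = 0.131, over all alternatives 0.00259 to 0.131).

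Jak2 serves the receptors of interferon-gamma, growth hormone and the GM-CSF family. It held 556, 566 and 341 normalised reads in siScr_Ctrl and 4249, 5540 and 3575 in siScr_LPS. Its treated libraries lay far above the untreated ones, with a difference of 3.12 (SE 0.26, limma, adjusted p = 1.63e-06), or 9.14-fold between the means. The shallow replicate 3 was the lowest of the untreated libraries for Jak2, although it was the highest of its group for 6 of the 9 genes.

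Stat2 is the STAT of type I interferon signalling, and it carried the interferon response element core shown above. It held 211, 259 and 249 normalised reads in siScr_Ctrl and 3764, 3778 and 1959 in siScr_LPS. Replicate 3 of the treated cells had fewer Stat2 reads than its fellows, yet it lay far above every untreated library. Stat2 rose by 3.50 (SE 0.26, limma, adjusted p = 6.11e-07), or 13.2-fold between the means.

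Stat3, the factor of IL-6 and IL-10 signalling, held 1920, 1784 and 1997 normalised reads in siScr_Ctrl and 2798, 3408 and 2669 in siScr_LPS. The groups did not overlap, and Stat3 rose by 0.62 (SE 0.17, limma, adjusted p = 0.0189), or 1.56-fold between the means. That call was the least firm of the 7. It ended with quantile normalisation (0.36, limma, adjusted p = 0.165), without siScr_Ctrl replicate 2 (0.58, adjusted p = 0.0632) and without siScr_LPS replicate 2 (0.52, adjusted p = 0.0850), within a range of 0.0121 to 0.165 over all alternatives.

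Stat5a, a factor of GM-CSF and growth hormone signalling, held 107, 115 and 214 normalised reads in siScr_Ctrl and 237, 199 and 172 in siScr_LPS. Replicate 3 of the untreated cells reached into the treated range. The difference was 0.45 (SE 0.27, 95% interval -0.13 to 1.03, limma, adjusted p = 0.261). It ran from 0.30 to 0.71 when single libraries were left out. Stat5a lies beside its close copy Stat5b in the genome, and how reads shared by both were counted is not given in the sources used here.

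Stat6, the factor of IL-4 and IL-13 signalling, held 1539, 1616 and 1925 normalised reads in siScr_Ctrl and 1669, 1282 and 1341 in siScr_LPS. The groups overlapped. Stat6 was the only member with a difference below 0, as 52% of all genes had, at -0.24 (SE 0.15, 95% interval -0.56 to 0.079, limma, adjusted p = 0.276).

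Socs1 binds JAKs directly and blocks them. It had 0, 0 and 5.27 normalised reads in siScr_Ctrl and 85.5, 168 and 90.2 in siScr_LPS. In untreated cells all its 3 reads came from the shallow replicate 3, against 331 reads in the treated libraries. The pooled ratio was 123-fold, with a 95% interval of 41.7 to 600 that covers counting error only. Between the means the ratio was 65.2-fold. The fitted difference of 2.84 (SE 0.30, limma, adjusted p = 1.53e-05) understates the change of a gene with so few untreated reads.

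Socs3 binds JAKs together with the receptor shared by the IL-6 family, and its promoter held the STAT palindrome. It held 116, 127 and 148 normalised reads in siScr_Ctrl and 2038, 2247 and 1414 in siScr_LPS. The groups were far apart. Socs3 rose by 3.57 (SE 0.18, limma, adjusted p = 2.51e-08), or 14.6-fold between the means, and among the 9 genes it had the smallest p-value, the 37th of 12486 genes by p.

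Cish, the founding member of the SOCS family and a brake on STAT5 signalling, held 2.48, 4.19 and 14.1 normalised reads in siScr_Ctrl and 334, 419 and 219 in siScr_LPS. The untreated libraries held 17 Cish reads together and the treated ones 927. The pooled ratio was 60.8-fold (95% counting interval 37.8 to 105), and the fitted difference was 3.55 (SE 0.30, limma, adjusted p = 2.27e-06).

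Within siScr_LPS, replicate 3 was the lowest library for 7 of the 9 genes and replicate 2 the highest for 6. The same library held the fewest reads of Ifnb1, the interferon-beta gene, with 23.5 normalised reads against 76.5 and 182 in replicates 1 and 2. The part of interferon-beta in these values was not tested.

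With Tet2 siRNA, 5 of the 9 genes rose with LPS and 0 fell, beside 7.14% higher, 4.77% lower and 11.9% in either direction over the table (limma, adjusted p under 0.05). The 5 genes were Jak2, Stat2, Socs1, Socs3 and Cish, and all 5 also rose with control siRNA. Here too Socs1 and Cish would not have passed the filter without LPS-treated libraries. Those of control siRNA cells were enough to pass it, so the calls of both genes with Tet2 siRNA were favoured but not fixed. The libraries of these 5 and of Jak1 lay wholly above the untreated ones, against 21.9% of all genes, and those of 1 gene, Stat6, wholly below, against 21.3%. Stat6 was again the only member below 0, as were 50.2% of all genes. Jak1 and Stat3 did not pass here, with 2 treated libraries in place of 3, and a call in one cell population and not in the other does not show that the responses differ.

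Jak1 held 3514, 3817 and 3663 normalised reads in siTet2_Ctrl and 4223 and 4817 in siTet2_LPS. Its libraries did not overlap, but the difference of 0.30 (SE 0.16, 95% interval -0.042 to 0.64) did not pass (limma, adjusted p = 0.310). Jak2 held 575, 811 and 547 against 1904 and 3266. Its 2 treated libraries lay well apart from each other, and it rose by 1.92 (SE 0.29, limma, adjusted p = 0.000502), or 4.01-fold between the means.

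Stat2 held 224, 137 and 158 normalised reads in siTet2_Ctrl and 1143 and 1672 in siTet2_LPS, a rise of 2.82 (SE 0.29, limma, adjusted p = 2.36e-05), or 8.14-fold. Stat3 held 1919, 1290 and 1692 against 1915 and 2374. The highest untreated Stat3 library lay level with the lower treated one, and the difference was 0.40 (SE 0.19, limma, adjusted p = 0.260). Stat5a held 103, 117 and 85.5 against 102 and 214, with a difference of 0.45 (SE 0.30, limma, adjusted p = 0.462) that rested on 1 treated library, since without siTet2_LPS replicate 3 it was 0.0076. Stat6 held 1635, 1625 and 1554 against 1314 and 1318. Both treated Stat6 libraries lay below all untreated ones, and the difference of -0.28 (SE 0.17, 95% interval -0.64 to 0.078) did not pass (limma, adjusted p = 0.383).

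Socs1 had 0, 0 and 2.90 normalised reads in siTet2_Ctrl and 35.8 and 72.0 in siTet2_LPS. These were 4 reads against 113, a pooled ratio of 39.5-fold (95% counting interval 15 to 147), or 55.8-fold between the means. The fitted rise of Socs1 was 2.11 (SE 0.34, limma, adjusted p = 0.000829). Socs3 held 101, 101 and 105 against 948 and 1050, the tightest of the induced genes, and rose by 2.96 (SE 0.20, limma, adjusted p = 8.13e-07), or 9.77-fold. Cish held 4.31, 0 and 2.17 against 132 and 257. Its 8 untreated and 408 treated reads gave a pooled ratio of 71.3-fold (95% counting interval 35.8 to 166), and the fitted rise was 3.32 (SE 0.34, limma, adjusted p = 2.20e-05). In siTet2_LPS all 9 genes were higher in replicate 3 than in replicate 2. Ifnb1 had the opposite order in these 2 libraries, with 53.7 normalised reads in replicate 2 and 16.1 in replicate 3.

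**Figure D2:**
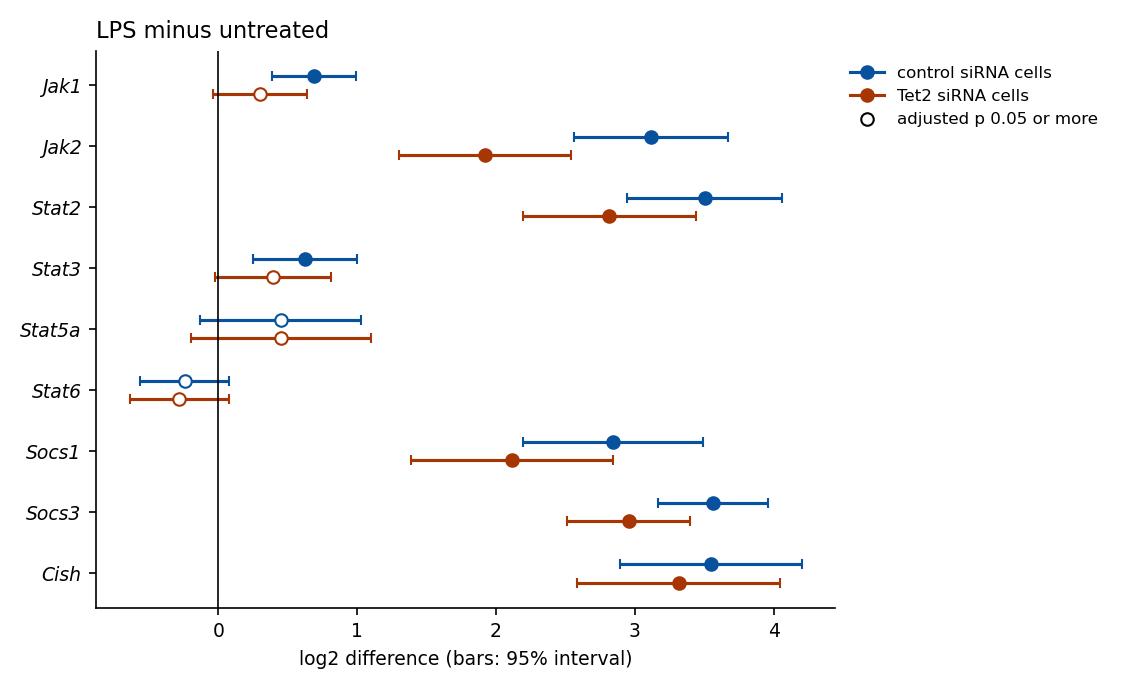
Fitted log2 differences between LPS-treated and untreated cells for the 9 genes, with 95% intervals, in control siRNA cells (blue) and Tet2 siRNA cells (brown). Filled points passed at an adjusted p under 0.05. The same 5 genes lie near or above 2 log2 units in both cell populations, while Jak1, Stat3, Stat5a and Stat6 lie between -0.28 and 0.69.

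The test of the difference between both LPS responses called 0 of the 9 genes, and 0 of all genes (limma). At an unadjusted p under 0.05 it gave 2 members, Jak2 and Socs3, against 2.25% of all genes. voom on the recovered reads also called 0 genes. Of the 9 differences 8 were below 0, as were 50.6% of all genes. With voom Cish, among these 8, turned to 0.26, and Stat5a, the member above 0, turned to -0.076. Jak2 had the 22nd smallest p of 12486 genes, with a response smaller by 1.20 log2 units with Tet2 siRNA (difference -1.20, SE 0.38, 95% interval -2.03 to -0.37, limma, unadjusted p = 0.00835, adjusted p = 1.00). The value ran from -1.58 to -0.81 when single libraries were left out. For Socs3 it was -0.61 (SE 0.27, limma, unadjusted p = 0.0448). For Stat2 it was -0.69 (95% interval -1.52 to 0.15) and for Socs1 -0.73 (95% interval -1.70 to 0.25). The intervals of Stat5a (-0.87 to 0.87) and Cish (-1.21 to 0.75) were wide enough to hold a change of over 0.5 log2 units in either direction.

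In untreated cells Tet2 siRNA called 0 of the 9 genes (limma). Over all genes 0.00801% were called, which is 1 gene. At an unadjusted p under 0.05 there were 0 members and 1354 genes, and voom on the recovered reads called 0 genes. The difference was below 0 for 8 of the 9, as it was for 53.1% of all genes, and Jak2 was the exception at 0.39 (SE 0.26, limma, adjusted p = 0.548). Socs3 was the only member whose libraries did not overlap, with 101 to 105 normalised reads against 116 to 148 in controls, a difference of -0.27 (SE 0.18, limma, adjusted p = 0.561). Of all genes 9.82% lay apart in that direction, and 7.82% in the other, where there was no member. Stat2 was at -0.43 (SE 0.26), Stat3 at -0.23 (SE 0.17), Stat5a at -0.37 (SE 0.27), Jak1 at -0.042 (SE 0.14) and Stat6 at -0.070 (SE 0.15). Socs1 (3 reads against 4) and Cish (17 against 8) were too close to 0 for a difference to be detectable at this depth.

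After LPS, all 9 genes were lower on average with Tet2 siRNA than with control siRNA, and 0 passed the test (limma). Of all genes 52.7% had a difference below 0, and 0 were called, also with voom on the recovered reads. At an unadjusted p under 0.05 there were 6 of the 9 members and 2131 of all genes, or 17.1%. The libraries of 6 members lay wholly below those of the controls, namely Jak1, Jak2, Stat2, Stat3, Socs1 and Socs3, against 21% of all genes, and 0 members lay wholly above, against 17.9%. This comparison shares its treated libraries with those of the LPS responses, so its values are not separate evidence from them.

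Stat2 had the largest of these differences. Both libraries with Tet2 siRNA (1143 and 1672 normalised reads) lay below the lowest control (1959), and their mean was 44.4% of the control mean. The difference was -1.12 (SE 0.29, 95% interval -1.74 to -0.49, limma, unadjusted p = 0.00203, adjusted p = 0.122). Socs3 had the smallest p, the 87th of all genes, with 948 and 1050 normalised reads against 1414 to 2247, or 52.6% of the control mean. Its difference was -0.88 (SE 0.20, 95% interval -1.32 to -0.44, limma, unadjusted p = 0.000887, adjusted p = 0.122).

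Whether these genes passed turned on a single library. Without siScr_LPS replicate 3, the control with the least induction, Stat2 was called at -1.43 (limma, adjusted p = 0.0326, 0.0326 to 0.997 over all alternatives) and Socs3 at -1.08 (limma, adjusted p = 0.0338, 0.0338 to 0.997 over all alternatives). The same fit called 19 genes higher and 101 lower over the whole table. Without siTet2_LPS replicate 2 the differences were -0.85 for Stat2 and -0.81 for Socs3, each at an adjusted p of 0.997.

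The kinases also lay apart after LPS. Jak1 held 73.8% of the control mean with Tet2 siRNA (difference -0.43, SE 0.16, limma, adjusted p = 0.198). Jak2 held 58.0% (difference -0.80, SE 0.29, limma, adjusted p = 0.194), and its value ran from -1.19 to -0.42 when single libraries were left out. Socs1 held 47.1% of the control mean (difference -0.80, SE 0.34, limma, adjusted p = 0.253) and Stat3 72.5% (difference -0.46, SE 0.19, limma, adjusted p = 0.253). The other 3 genes overlapped with their controls. Cish held 60% of the control mean (difference -0.67, SE 0.34, limma, adjusted p = 0.330), Stat5a 78.0% (difference -0.37, SE 0.30, limma, adjusted p = 0.563) and Stat6 92.0% (difference -0.11, SE 0.17, limma, adjusted p = 0.771).

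The summed level of the 11 macrophage markers was 65803 to 76918 normalised reads in siScr_Ctrl and 65882 to 77323 in siScr_LPS, against 36384 to 57059 in siTet2_Ctrl and 34998 to 51724 in siTet2_LPS. In bulk RNA fewer cells of a type and less RNA per cell cannot be told apart, and the part of these markers in the differences of the 9 genes was not tested. Of the 11 markers 11 had a difference below 0 with Tet2 siRNA after LPS and 10 in untreated cells (Trem2 was the exception), and 0 were called in either (limma). In untreated cells the members' differences lay between -0.44 and 0.39, with 8 of the 9 below 0. Their median was -0.23, beside -0.025 over all genes. After LPS all 9 lay below 0, with a median of -0.67, beside -0.024 over all genes.

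**Figure D3:**
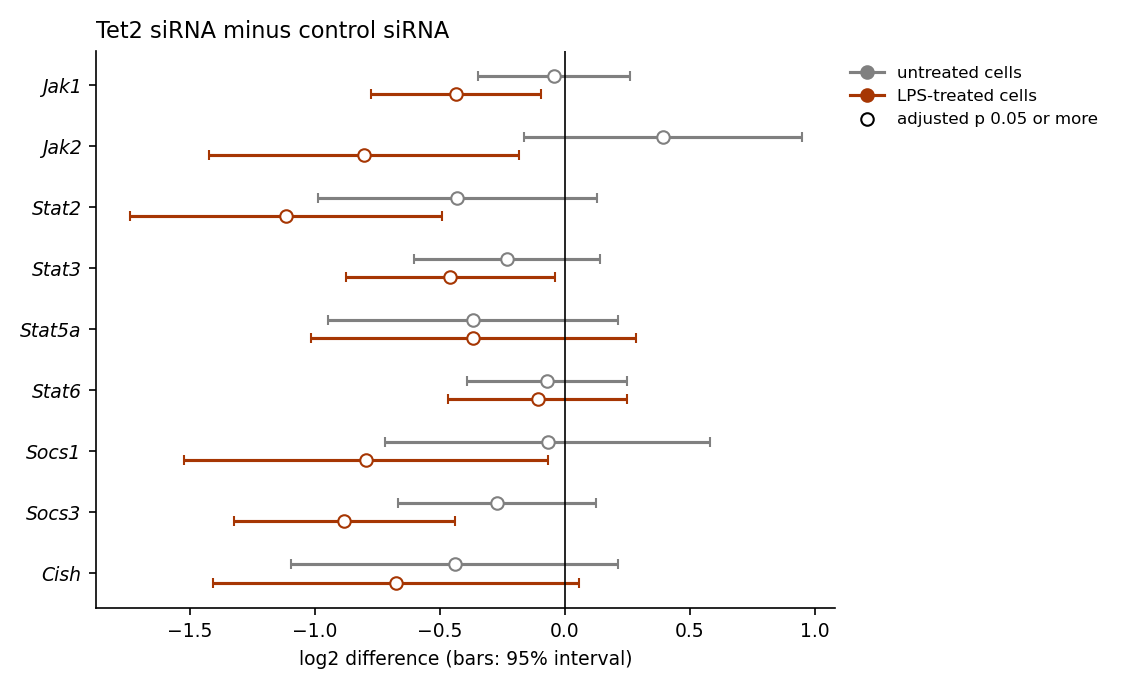
Fitted log2 differences between Tet2 siRNA and control siRNA cells for the 9 genes, with 95% intervals, in untreated (grey) and LPS-treated cells (brown). Open points did not pass at an adjusted p under 0.05, and all are open. After LPS all 9 points lie below 0, and the intervals of 6 do not reach 0.

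Levels can be compared between genes only per length, here per kilobase of the longest annotated transcript. In siScr_Ctrl Jak1 was the highest, at 771 ± 63.9 normalised reads per kilobase (SD, n = 3). Stat6 followed at 449 ± 54.2, Stat3 at 315 ± 17.8 and Jak2 at 96.9 ± 25.3, and each of these 4 lay apart from its neighbours in the order. Stat2 (54.5 ± 5.69), Socs3 (50.9 ± 6.37) and Stat5a (36.7 ± 15.1) overlapped. Cish (1.47 ± 1.33) and Socs1 (0.60 ± 1.05) were lowest and overlapped too. Untreated cells thus held mainly Jak1, Stat6 and Stat3 of these transcripts.

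In siScr_LPS Jak1 was again highest, at 1248 ± 121 normalised reads per kilobase (SD, n = 3). Jak2 (886 ± 199), Socs3 (744 ± 170), Stat2 (720 ± 238), Stat3 (490 ± 65.3) and Stat6 (379 ± 55.3) followed, each overlapping its neighbour. Stat6 went from the second place untreated to the sixth, as other genes passed it. Cish (68.9 ± 21.4), Stat5a (51.2 ± 8.34) and Socs1 (39.4 ± 15.9) formed an overlapping lower group. Socs1 was the lowest of the 9 in every group.

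In siTet2_Ctrl Jak1 (747 ± 30.8), Stat6 (425 ± 11.6), Stat3 (270 ± 52.7) and Jak2 (128 ± 28.8; SD, n = 3) led, and each lay apart from the next. In siTet2_LPS Jak1 (921 ± 85.6) and Jak2 (514 ± 191) had the highest means. Jak2, Socs3 (391 ± 28.0), Stat3 (355 ± 53.8), Stat6 (349 ± 0.863) and Stat2 (320 ± 85.0; SD, n = 2) overlapped from one to the next. The longest Cish transcript is annotated as noncoding. Per kilobase of the longest coding one, Cish stood at 114 in siScr_LPS and 68.1 in siTet2_LPS, and the ranks of the 9 genes were unchanged. With the mean transcript length Jak1 stayed first and Socs1 last in every group, but Jak2 in LPS-treated cells went from the second to the sixth place.

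**Figure D4:**
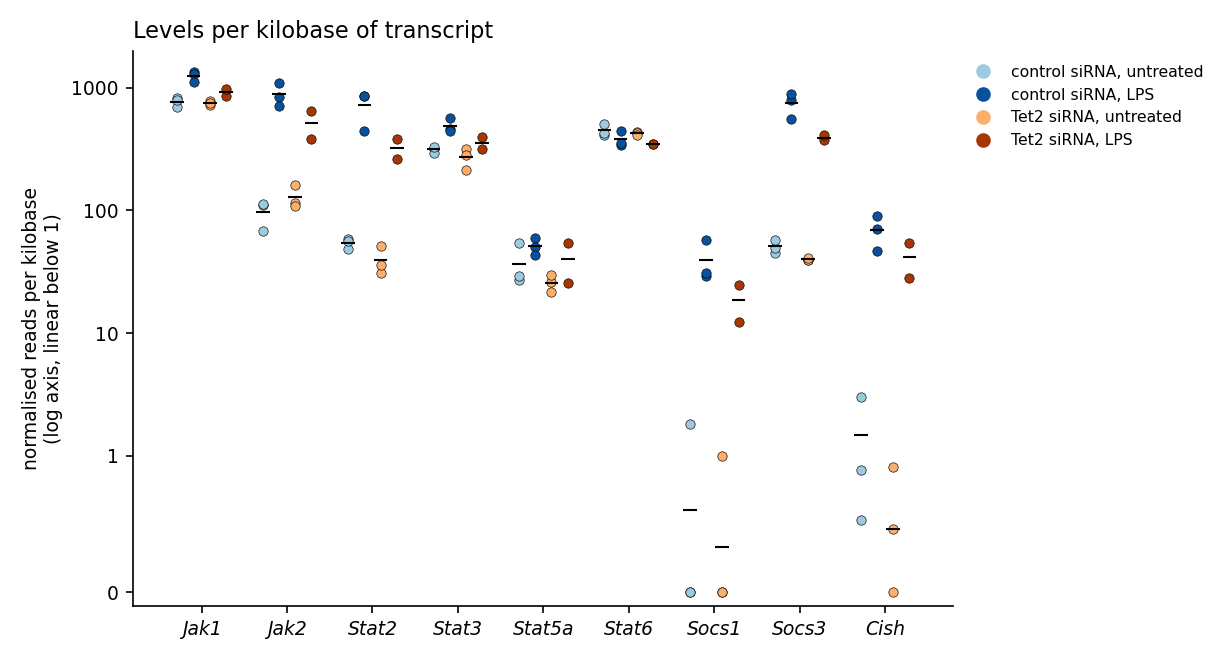
Normalised reads per kilobase of the longest transcript for the 9 genes in each library, by group, on a log axis that is linear below 1. Each point is a library and each short line a group mean. Jak1 is highest in every group, and Cish and Socs1 lie near 0 in untreated cells.

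The genes whose log2 values followed each member most closely over the 11 libraries are given as a description, since all libraries of a group share the treatment. Jak2 was close to Oas1b, an interferon-induced gene (Pearson r = 0.99). Stat2 was closest to the ubiquitin-pathway genes Ube2l6 and Rnf19b (r = 1.00 for both, rounded). Socs1 was closest to the antiviral gene Mx1 (r = 0.99) and Ifi44 (r = 0.98), and Socs3 to Slfn8 and Oasl1 (r = 1.00 for both, rounded). Cish was closest to 4933426M11Rik and to Edn1, the endothelin gene (r = 0.99 for both). Jak1 was closest to Spnb3 and Uba7 (r = 0.98 for both), and Stat3 to Otud1 and Ptgir (r = 0.98 for both). The 2 genes not called with LPS had looser neighbours, with Cables2 (r = 0.95) and Lrp10 (r = 0.94) for Stat5a and Hectd3 and Ftsj2 (r = 0.96 for both) for Stat6.

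Other genes of the pathway were described by lists of their roles, with the count called in each direction and the median log2 difference. The lists hold 95 genes, 94 in the table and 72 above the filter. With control siRNA 38 of the 72 rose with LPS and 7 fell, with a median of 0.75. With Tet2 siRNA 27 rose and 4 fell, with a median of 0.47. The shares over all genes were 13.2% higher and 10.4% lower with control siRNA, and 7.14% and 4.77% with Tet2 siRNA, so that the counts that fell were near the share over all genes. The medians over all genes were -0.020 and -0.0014. For 9 of the 72 genes the filter favoured a difference, since they would not have passed without LPS-treated libraries. They were Ifnb1, Il6, Lif, Il27, Il23a, Csf3, Il15ra, Mx1 and Ccl22. Passing did not fix a difference in each cell population, and Lif was not called with Tet2 siRNA. All 9 are in these counts and medians, which are descriptions only, also because the lists were chosen with earlier results of these data known. Some genes are in more than 1 list: Osm, Pim1, Bcl2l1 and Socs2.

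Among the remaining family members, 5 of 9 rose with LPS and 1 fell with control siRNA (median 0.61), and 3 rose and 0 fell with Tet2 siRNA (median 0.20). Over all genes 13.2% rose and 10.4% fell with control siRNA, so that 1 of 9 lower is near that share, and 7.14% and 4.77% with Tet2 siRNA. The kinase Tyk2 rose by 1.65 and 1.58 in that order and Socs7 by 1.26 and 0.66. Socs6 fell by 0.77 with control siRNA, and its difference with Tet2 siRNA was -0.61 and did not pass. Stat5b, the copy of Stat5a, was at 0.12 and -0.11 and did not pass in either.

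Of 20 ligand genes 9 were above the filter, 6 of which would not have passed without LPS-treated libraries, so no count or median is given for this list. Il6, Csf3 and Ifnb1 had 0 reads in all untreated libraries. With 3 counts per group in place of 0, a limit of counting alone, they were at least 1187-fold, 128-fold and 99.98-fold higher after LPS with control siRNA. With Tet2 siRNA the bounds were 666-fold, 186-fold and 39.1-fold. Osm, a cytokine of the IL-6 family that was measured in untreated cells, rose by 2.14 with control siRNA and by 2.0 with Tet2 siRNA.

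Of 19 receptor genes 6 rose and 1 fell with control siRNA (median 0.51, beside 13.2% and 10.4% of all genes). With Tet2 siRNA 2 rose and 1 fell (median 0.35), shares near the 7.14% and 4.77% of all genes. Il4ra, which signals through STAT6, rose by 1.45 and 0.95. Il15ra, the IL-15 receptor chain, differed by 2.81 and 3.00 and would not have passed the filter without LPS-treated libraries. Il6ra, the IL-6 binding chain, fell in both, with differences of -1.85 and -1.40. Il13ra1 rose by 1.22 with control siRNA, and its difference with Tet2 siRNA was 0.71 and did not pass.

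Of 12 other brakes, such as phosphatases and PIAS proteins, 4 rose and 2 fell with control siRNA (median 0.10), and 1 rose and 0 fell with Tet2 siRNA (median 0.14). These shares lie beside 13.2% higher and 10.4% lower over all genes with control siRNA and 7.14% and 4.77% with Tet2 siRNA, so that 1 of 12 is near the share over all genes. That 1 gene was Usp18, which blocks the interferon receptor. It rose by 5.82 with control siRNA and by 4.49 with Tet2 siRNA. Ptprc, the phosphatase CD45, which is also one of the macrophage markers, rose by 1.03 with control siRNA. Its difference with Tet2 siRNA was 0.52 and did not pass. Ptpn2, a phosphatase of JAKs and STATs, rose by 0.89 with control siRNA, and Pias3 fell by 0.67.

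All 8 interferon-side partners and targets of STAT2 rose in both cell populations, with medians of 5.71 and 4.68, beside 13.2% and 7.14% of all genes. Of these, Mx1 would not have passed the filter without LPS-treated libraries. Among them Ifit1 rose by 8.41 and 7.0, Ifit3 by 7.61 and 5.78, Isg15 by 6.19 and 5.26, and the factor Irf1 by 5.24 and 4.10. Of 7 measured STAT3 targets 6 rose in both, with medians of 3.01 and 2.82, beside 13.2% and 7.14% of all genes. Myc rose by 3.54 and 2.93, the kinase gene Pim1 by 3.17 and 2.97, and Bcl3 by 3.01 and 2.82. Many of these genes are also driven by other factors that LPS activates, so their counts do not single out a STAT.

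Of 6 STAT5 targets 3 were higher and 2 lower with control siRNA (median 0.75) and 2 higher and 2 lower with Tet2 siRNA (median 0.37). Over all genes 13.2% were higher and 10.4% lower with control siRNA, and 7.14% and 4.77% with Tet2 siRNA. Among those higher were Osm and Pim1, in both cell populations. Bcl6 and Ccnd1 fell, with differences of -1.22 and -0.88 for Bcl6 and of -1.66 and -1.37 for Ccnd1. Of 6 measured STAT6 targets 1 was called higher and 1 lower in both cell populations. In a list of 6 genes, 1 call in a direction cannot be set apart from these shares. The higher one was the chemokine gene Ccl22, at 1.35 and 1.66, with at most 5.27 normalised reads in any untreated library. It would not have passed the filter without LPS-treated libraries. The factor Klf4 fell, with differences of -0.90 and -1.26.

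**Figure D5:**
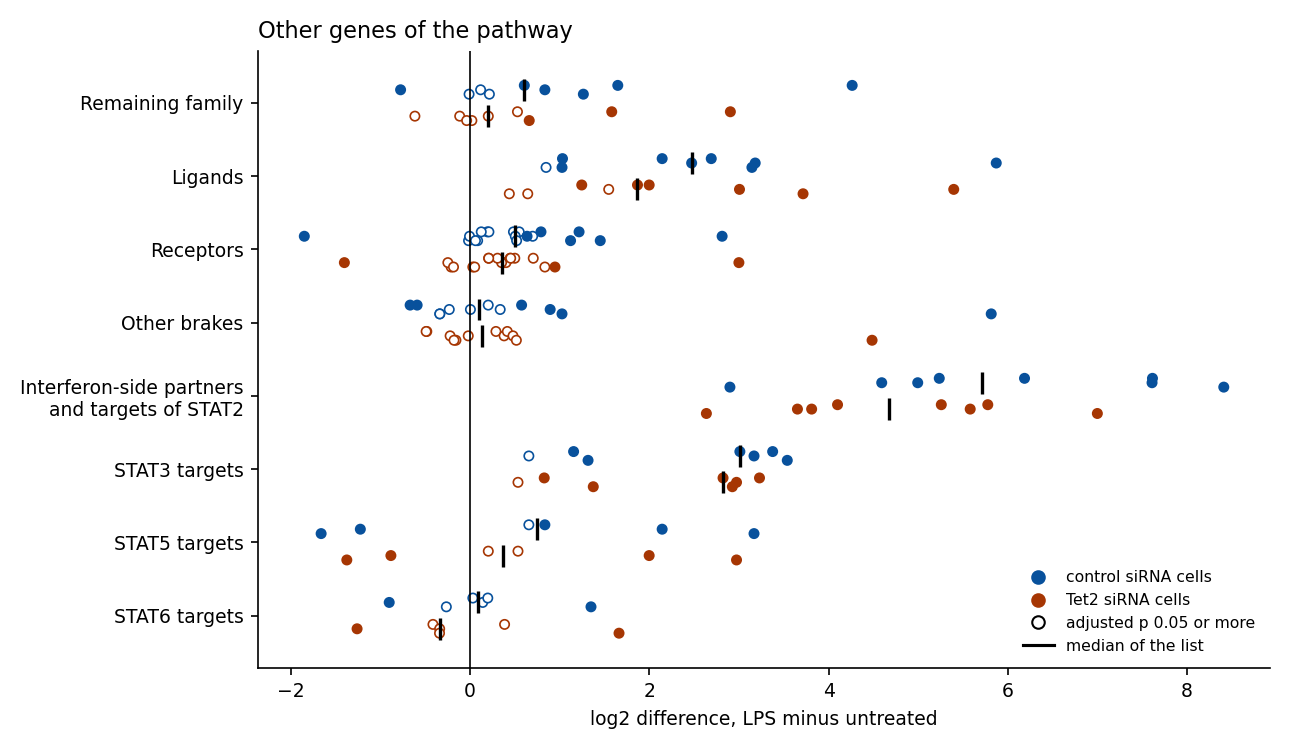
Fitted log2 differences between LPS-treated and untreated cells for the other pathway genes that passed the filter, by list, in control siRNA cells (blue) and Tet2 siRNA cells (brown). Filled points passed at an adjusted p under 0.05, and the black bar is the list's median. The black bar of the STAT2 list lies at 5.71 and 4.68. The points of 9 genes, 6 of them ligands, would not have passed the filter without LPS-treated libraries.

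The same lists in the comparison of Tet2 siRNA with control siRNA after LPS had 0 genes called (limma), as had the whole table. Of the 72 genes 59 lay below 0 (52.7% of all genes), 35 had libraries wholly below those of the controls (21% of all genes), and the median was -0.48 beside -0.024 over all genes. The 8 interferon-side partners and targets of STAT2 had the lowest median, -1.22, and all 8 had libraries wholly below those of the controls. Brakes other than SOCS had a median of -0.070.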

How the data were processed

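The deposited table gives variance-stabilised log2 values of 26061 genes in 11 libraries, per the file headers and the values. The submitters' processing notes name Trim Galore 0.3.3, TopHat2 2.0.9, the mm9 build and DESeq2. How reads were counted, with which annotation and with or without strand, is not given in the sources used here, so overlapping genes and close copies such as Stat5a and Stat5b are uncertain. Values at the table's minimum of 4.02 are genes without reads. Inverting the transform returned whole numbers of reads (tolerance 0.01) in 100% of cells. In 25 rows the gene name has become a date.

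limma 3.58.1 (R 4.3.3) was fitted to the deposited log2 values of all 11 libraries, with 1 mean per group and a variance trend. Tests were two-sided, with Benjamini-Hochberg adjustment over 12486 genes, those that exceeded the minimum by 1 log2 unit or more in 2 or more libraries. The scale understates changes of genes with few reads. Transcript lengths came from GENCODE on GRCm38. Members and lists were chosen with earlier results of these data known. From each list up to 4 called genes with the smallest p with LPS in control siRNA cells were eligible to be named. Ifnb1, Stat5b, Ptpn2, Pias3, Arg1 and Mrc1 were named after their values were seen. Some single-gene values are not reported here. Alternatives were 2 other filters, quantile normalisation, median centring, a fit without the trend, fits of the compared groups alone, a block for the replicate number, voom on recovered reads and omission of each library. Omission of both shallow libraries, and coding length, were added after seeing the data. The procedure was tested on simulated data.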

Additional observations from a re-analysis of the deposited data

How the results depend on the processing

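Of 891 member values under alternatives, 859 kept their direction and side of the threshold, 26 changed sign, 4 lost a call and 2 gained one. The 4 lost and 2 gained calls are given with Jak1, Stat3, Stat2 and Socs3 above. None of the 26 that changed sign was called. The counts of members called were 7, 5, 0, 0 and 0, within 1.5 times of those under every alternative except that the count for Tet2 siRNA after LPS ran from 0 to 2 when single libraries were left out. Over all genes, LPS in Tet2 siRNA cells called 891 higher and 596 lower, and 504 and 288 without siTet2_LPS replicate 3. No scaling moved the median of all genes by more than 0.1 log2 units.

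For Tet2 siRNA in untreated cells, Socs1 turned to 0.034 with quantile normalisation, 0.42 with voom and 0.30 without both shallow libraries, and ran from -0.27 to 0.20 with single libraries left out. Stat6 turned to 0.015 without both shallow libraries and ran from -0.13 to 0.024, and Jak1 ran from -0.11 to 0.0041. After LPS, Stat5a ran from -0.81 to 0.078 and Stat6 from -0.18 to 0.0051. For the difference between LPS responses, Stat5a turned to -0.030 with quantile normalisation, -0.0086 with median centring, -0.076 with voom and -0.18 without both shallow libraries, and ran from -0.44 to 0.45. Stat6 turned to 0.039 with quantile normalisation and ran from -0.13 to 0.075. Cish turned to 0.26 with voom and ran from -0.65 to 0.18. The cause of these changes was not tested.

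Whether the replicate numbers pair the libraries is unresolved, and the main fit held no pairing. Of 15 same-numbered pairs 8 correlated above 0.1 (r from -0.28 to 0.63), and libraries correlated best with their own number in 18 of 30 comparisons. These comparisons overlap, and after removal of group means the siTet2_LPS libraries are mirror images, so the count does not decide on pairing. With LPS in control siRNA cells, a replicate block called 1761 genes higher and 1496 lower, against 1649 and 1304 without it. In Tet2 siRNA cells it called 932 and 649, against 891 and 596. With the replicate block, 7, 5, 0, 0 and 0 members were called, and 1 value changed sign, Stat5a in the difference between LPS responses, to -0.0097. The depth limits Socs1 and Cish in untreated cells, with 3 to 17 reads per group.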

Other observations

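Within groups the 9 genes did not all vary together. After removing group means, the log2 values of Stat2 and Socs3 correlated over the 11 libraries with r = 0.80, Stat2 and Cish with r = 0.83, and Stat3 and Cish with r = 0.84. Jak2 and Socs1 gave r = 0.014 and Jak2 and Stat6 r = -0.40. These are descriptions over few libraries that share depth and handling.

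Arg1 and Mrc1, of the list of STAT6 targets, were singled out after their values were seen. Arg1, an arginase gene, held 2257 to 2986 normalised reads in siScr_Ctrl and 292 to 1202 in siTet2_Ctrl, and Mrc1, a mannose receptor gene, 2047 to 5816 and 883 to 1945. Neither gene passed in untreated or LPS-treated cells (limma), and Stat6 held 1539 to 1925 and 1554 to 1635 normalised reads in the same untreated groups.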
